A study of Mus musculus with 20 samples.

Results

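The genes of complement and coagulation form the defence and clotting arms of blood plasma, and hepatocytes secrete most of their products. In complement, recognition proteins switch on serine proteases that build convertases, the convertases cleave C3 and C5, and the last components assemble into a pore in the target membrane. In coagulation, vitamin K-dependent proteases activate each other until thrombin, made from the product of F2, turns fibrinogen into fibrin, while anticoagulants limit the cascade and plasmin dissolves the clot. The set studied here was a list of 37 mouse genes made by the liver, chosen by symbol and function, out of 53028 genes in the count table, and all 37 passed the expression filter in both kinds of RNA.

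Polyadenylated RNA of 10 livers was sequenced as 20 libraries, 1 from the whole lysate (total RNA, the transcriptome) and 1 from the polysome fractions of the same mouse (polysome RNA, the translatome). Chow-fed C57BL/6J males received 3 intraperitoneal injections of an antisense locked nucleic acid (LNA), directed against GFP in the controls (mice 1, 2, 3, 8 and 9) and against the small nucleolar RNA SNORA73 in the others (mice 4, 6, 10, 11 and 12), so all mice carried an LNA. For the chow study, the methods give 3 mg/kg every other day from the age of 8 weeks, with animals killed 2 days after the last dose. For liver polysomes they give an age of 10 weeks, 1 week of LNA and cycloheximide, which halts ribosomes, by tail vein before death. Snora37 is the target named in the sample labels. These libraries were taken as SNORA73 LNA because no other test LNA is described in mice. After a first comparison of SNORA73-1 and SNORA73-2 LNAs in chow-fed mice, the study went on with SNORA73-2, but it does not repeat the name for the sequenced livers. An injected LNA is not restricted to 1 liver cell type. The targeted RNA could not be read, since Snora73a had at most 2 and Snora73b at most 4 counts in any library, and its host gene Snhg3 had 123 to 201 counts in total RNA with GFP LNA and 61 to 147 with SNORA73 LNA.

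Depth was 24098067 to 42023390 counts per total RNA library with GFP LNA and 20005389 to 29887649 with SNORA73 LNA. Polysome libraries had 17751846 to 33824659 and 14852951 to 24905687 counts. All 8 hepatocyte markers were detected in every group. SNORA73 LNA mouse 10 stood apart: each of 13 acute phase genes, whose products the liver releases into plasma during inflammation, was higher in it than in the other 9 mice in both RNAs. Saa2 had 8387 CPM (counts relative to library size, scaled by trimmed mean of M values, TMM) in total RNA of mouse 10 against 8.85 to 249 in the others. Several values that mouse 10 sets are therefore also given without it. Some values are also given without mice 9 and 10, since the study left out 1 unnamed mouse per group and earlier work on these data pointed to these mice. The pair is not certain: by the distance of log2 CPM profiles to the group means, mice 9 and 6 were nearer to the other LNA group in both RNAs, mouse 10 in total RNA only, and mice 4 and 12 in polysome RNA only. Leaving out mice that stood apart favours groups that separate. Markers of sinusoidal endothelial cells summed to 144 to 179 CPM with GFP LNA and 179 to 193 with SNORA73 LNA in total RNA, and to 122 to 140.1 and 146 to 164 in polysome RNA, where the groups did not overlap. Stab2, a scavenger receptor of those cells, was the marker called higher in total RNA, by 1.06 (log2 fold change, adjusted p = 0.0497 in edgeR). The part of these markers in the results was not tested. In whole liver, fewer cells of a type and less RNA per cell cannot be told apart.

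The fibrinogen promoters are shown because in total RNA of mouse 10 the 3 fibrinogen genes lay farther above the other livers, as a ratio to their median, than any other member. Fga, Fgb and Fgg encode the 3 chains of fibrinogen and lie side by side on chromosome 3. The sequences are the 250 bases before each annotated start in RefSeq (GRCm38.p6), read 5′ to 3′ on the strand of the gene: chr3:83025903-83026152 (+ strand) for Fga, chr3:83049864-83050113 (− strand) for Fgb and chr3:83007474-83007723 (+ strand) for Fgg. Capitals mark matches, on either strand, to GTTAAT (a core of HNF1 sites), TTGCNNAA (C/EBP), TTCNNNGAA (STAT) and CTGGGAA (an element known from interleukin-6 responsive liver genes), and none of the matches overlap.
Fga: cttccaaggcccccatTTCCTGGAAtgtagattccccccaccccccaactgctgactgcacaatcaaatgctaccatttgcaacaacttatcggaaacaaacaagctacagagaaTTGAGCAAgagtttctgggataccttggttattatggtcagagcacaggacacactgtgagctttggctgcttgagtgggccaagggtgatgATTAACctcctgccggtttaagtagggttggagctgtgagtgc
Fgb: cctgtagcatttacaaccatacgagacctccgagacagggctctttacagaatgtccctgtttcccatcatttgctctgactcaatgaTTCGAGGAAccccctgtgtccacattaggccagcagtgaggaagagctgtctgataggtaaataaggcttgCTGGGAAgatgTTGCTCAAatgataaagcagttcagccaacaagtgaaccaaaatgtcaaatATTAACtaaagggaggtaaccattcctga
Fgg: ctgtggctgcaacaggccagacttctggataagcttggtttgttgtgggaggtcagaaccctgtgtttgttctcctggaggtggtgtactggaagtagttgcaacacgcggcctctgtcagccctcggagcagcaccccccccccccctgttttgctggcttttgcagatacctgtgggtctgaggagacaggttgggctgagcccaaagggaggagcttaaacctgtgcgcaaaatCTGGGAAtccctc
In Fga the HNF1 core lay 43, the C/EBP match 135 and the STAT match 234 bases before the start. In Fgb they lay 29, 80 and 162 bases before it, with CTGGGAA 91 bases before it. Fgg held CTGGGAA 13 bases before its start and none of the other letters in this window. RefSeq promoters were matched for 29 of the 37 genes, as 31 sequences. Of these 31, 29.0% held GTTAAT, 25.8% TTGCNNAA, 19.4% TTCNNNGAA and 16.1% CTGGGAA, against 6.43%, 9.56%, 7.02% and 9.10% of all 32851 promoters of this length. F2 and Cpb2 held none of the 4, and neither did Serpinc1, F5, C8g, F7, F10, F12, Mbl1, C6 and Mbl2. A match is a description of letters and not a binding site.

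Together the 37 genes took 2.66 ± 0.147% (SD, n = 5) of total RNA counts with GFP LNA and 2.90 ± 0.569% with SNORA73 LNA. In polysome RNA they took 2.98 ± 0.118% and 3.15 ± 0.478%. The wider spread and the higher mean with SNORA73 LNA came with mouse 10, whose total RNA share was 3.90%. The other SNORA73 LNA livers had 2.56 to 2.84% in total RNA, within the GFP LNA range of 2.50 to 2.85%. In polysome RNA mouse 10 had 3.92% and the others of its group 2.73 to 3.29%, against 2.87 to 3.14% with GFP LNA. The plot of all members by mouse shows each liver against the mean of the GFP LNA livers.

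**Figure D1:**
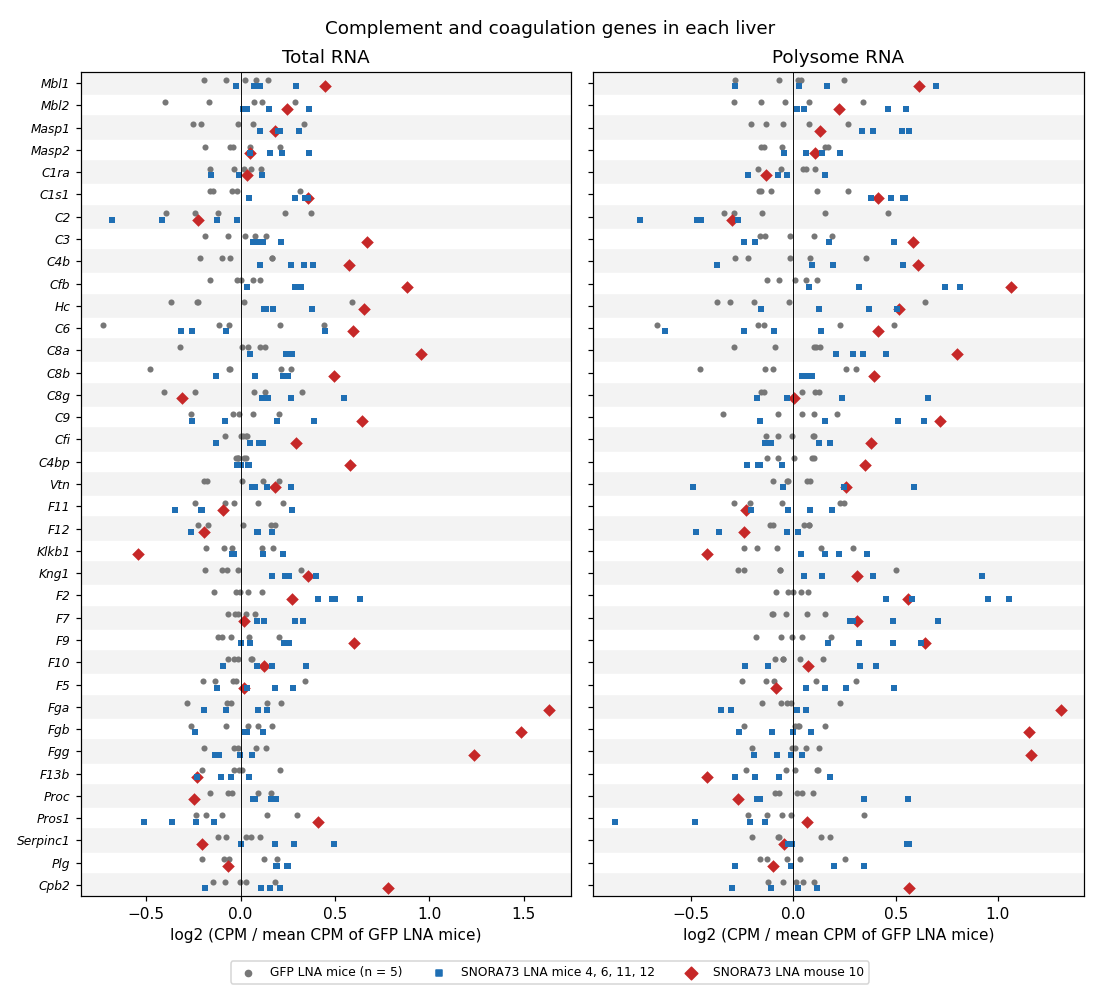
Level of each of the 37 genes in each liver, as log2 of CPM over the mean CPM of the 5 GFP LNA mice, in total RNA (left) and polysome RNA (right), where each symbol is 1 mouse. The fibrinogen genes Fga, Fgb and Fgg of mouse 10 (red diamonds) lie far to the right of all other mice, and the SNORA73 LNA points of F2 lie to the right of the GFP LNA points.

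The first question was whether SNORA73 LNA changed the amount of these messages in total RNA. F2, which encodes prothrombin, was higher in every SNORA73 LNA liver than in any GFP LNA liver, and C4b and Cfb, parts of the C3 convertases, had the next smallest p. A gene was called higher if its log2 fold change reached 0.5 and lower if it was negative, each with a Benjamini-Hochberg adjusted p (FDR) under 0.05, and SE below is the standard error of the log2 fold change. With all 10 mice, 0 of the 37 genes were called in edgeR's quasi-likelihood test, where 0.0303% of the 13195 genes tested were called higher and 0% lower. limma-voom and DESeq2 also called 0. At an unadjusted p under 0.05, 5 of 37 were higher and 0 lower, against 4.96% and 3.69% of all genes. These were F2, C4b, Cfb, Kng1 and C1s1. The count, in either direction, was 3 without mouse 2, 8 without mouse 9 or mouse 11, 9 without mouse 10 and 10 without mice 9 and 10, where 6.65%, 10.5%, 8.08%, 9.57% and 12.1% of all genes had such a p. A positive log2 fold change was seen for 30 of 37, against 51.7% of all genes, and the median was 0.18 for the list and 0.0070 for all genes tested. A positive median was not particular to the list. The 13 acute phase genes had a median of 0.87 (13 above 0). Mouse 10 was above every other mouse for all 13, and their median was not computed without it. A list of 20 intracellular hepatocyte enzymes had a median of 0.20 (14 above 0). For 20 other secreted hepatocyte proteins it was 0.022 (12 above 0), and for the 8 hepatocyte markers −0.026 (2 above 0). The lists of secreted proteins and of markers share genes and are not independent. Groups without overlap were seen for 1 of 37, F2, against 1.8% of all genes. With library totals in place of TMM, the median of all genes moved to −0.14 and that of the list to 0.033, with 24 of 37 above 0. Both medians moved down, and the share of all genes above 0 was not counted in this scaling. Without mouse 10 the median of the list was 0.12, with 28 of 37 above 0.

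F2 (ENSMUSG00000027249) lies at chr2:91612397-91636457 in GRCm38.p6. In total RNA it had 817, 805, 839.9, 741 and 884 CPM in GFP LNA mice 1, 2, 3, 8 and 9, and 1144, 1267, 988, 1087 and 1154 CPM in SNORA73 LNA mice 4, 6, 10, 11 and 12. The groups did not overlap, and mouse 10 was the lowest SNORA73 LNA liver. The means were 817 ± 52.4 and 1128 ± 102.1 CPM (SD, n = 5), which put the log2 fold change at 0.46 (SE 0.0965, adjusted p = 0.215 in edgeR). Without mice 9 and 10 it was 0.54, with an adjusted p of 0.0267 in edgeR, and F2 was then the 1 member called, where 0.553% of all genes were called higher. It was not called without mice 6 and 9, a pair chosen after seeing the data, at 0.45 (adjusted p = 0.14 in edgeR), nor with any 1 mouse left out. DESeq2 gave 0.46 with an adjusted p of 0.000373, under the fold threshold. With library totals it was 0.32 (adjusted p = 0.246 in edgeR).

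Cfb encodes factor B, the protease of the alternative pathway convertase. Its total RNA level was 549.6, 518, 564, 469 and 527 CPM in GFP LNA mice 1, 2, 3, 8 and 9 and 655, 645, 967, 537 and 642 CPM in SNORA73 LNA mice 4, 6, 10, 11 and 12. Mouse 10 was far above the rest, and mouse 11 lay within the GFP LNA range. The log2 fold change was 0.39 (SE 0.143, adjusted p = 0.464 in edgeR), and 0.24 without mouse 10. C4b encodes complement C4 and shares sequence with C4a, so the division of reads between them is uncertain. It had 426, 439, 510.2, 392 and 510.0 CPM in the GFP LNA mice and 575, 595, 678, 549 and 488 CPM in the SNORA73 LNA mice, in the same order. Only mouse 12 of the SNORA73 LNA livers lay within the GFP LNA range. The log2 fold change of C4b was 0.34 (SE 0.115, adjusted p = 0.414 in edgeR).

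**Figure D2:**
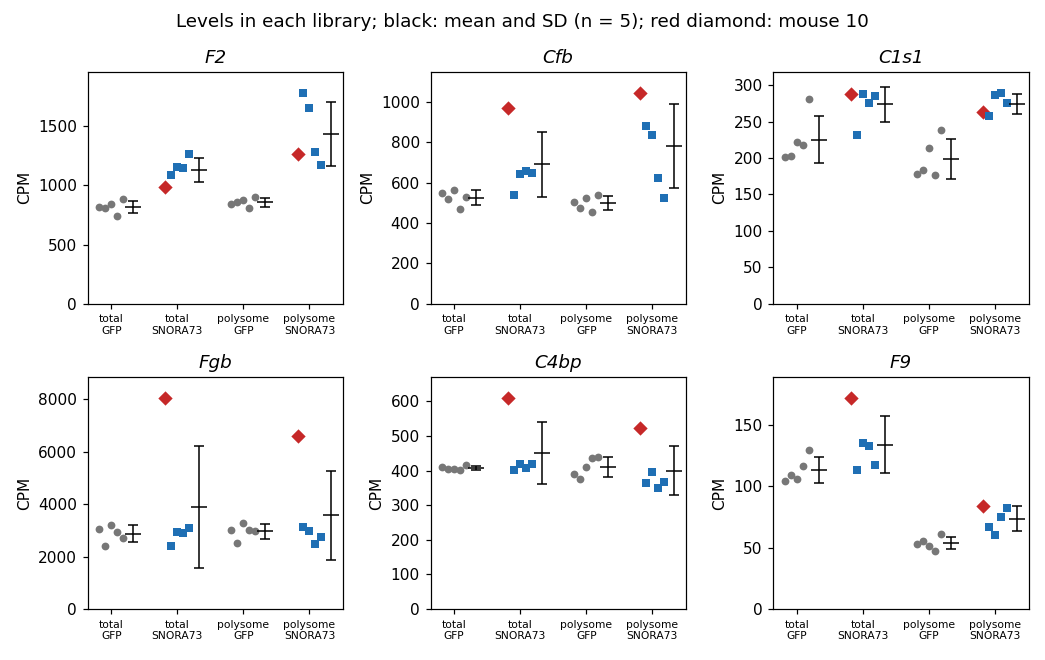
CPM of 6 genes in each library, by RNA and LNA, with the mean and SD of each group (n = 5) in black and mouse 10 as a red diamond. F2 has groups without overlap in both RNAs, Fgb and C4bp differ from the GFP LNA range chiefly through mouse 10, and F9 has lower CPM in polysome than in total RNA.

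The same question was asked of polysome RNA, that is, of messages carried by several ribosomes. F2 again had the smallest p, now followed by C1s1, a protease subunit of the C1 complex, and Cfb. With all 10 mice, 0 of 37 genes were called in edgeR, where 0.0153% of the 13060 genes tested were called higher and 0% lower. limma-voom called 0 and DESeq2 called 2 higher, against 1.85% of all genes. At an unadjusted p under 0.05, 8 of 37 were higher, against 8.12% of all genes, and 1 of 37 was lower, against 5.32%. The 8 were F2, C1s1, Cfb, F9, F7, Masp1, C8a and C9. The lower gene was C2, the protease of the classical and lectin convertases, at −0.44 (SE 0.166, adjusted p = 0.289 in edgeR). A positive log2 fold change was seen for 29 of 37, against 48.6% of all genes, and the median was 0.19 against −0.011. The 13 acute phase genes had a median of 1.02 (13 above 0). Mouse 10 was again above every other mouse for all 13, and their median was not computed without it. The 20 intracellular hepatocyte enzymes had a median of 0.12 (13 above 0). For the 20 other secreted hepatocyte proteins, which share genes with the markers, it was 0.011 (11 above 0), and for the 8 hepatocyte markers −0.022 (4 above 0). Groups did not overlap for 4 of 37, namely F2, C1s1, F7 and C8a, all higher with SNORA73 LNA, against 3.2% of all genes in either direction. With library totals, the median of all genes moved to −0.17 and that of the list to 0.028, with 20 of 37 above 0. Both medians moved down, and the share of all genes above 0 was not counted in this scaling. Without mouse 10 the median of the list was 0.13, with 26 of 37 above 0. The total and polysome comparisons rest on the same 10 mice and are not independent.

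In polysome RNA, F2 had 841, 854, 877, 806 and 899 CPM in GFP LNA mice 1, 2, 3, 8 and 9 and 1277, 1172, 1262, 1778 and 1654 CPM in SNORA73 LNA mice 4, 6, 10, 11 and 12. Every SNORA73 LNA liver was above every GFP LNA liver, with mice 11 and 12 the highest. The log2 fold change was 0.74 (SE 0.142, adjusted p = 0.0823 in edgeR). It was 0.81 without mice 9 and 10 (adjusted p = 0.0729 in edgeR). F2 passed both thresholds in DESeq2, at 0.75 (adjusted p = 0.000134), and in edgeR on genes with a CPM above 1 in every library, also at 0.75 (adjusted p = 0.0476).

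C1s1, whose close copy C1s2 makes its counts uncertain, had 178, 184, 214, 176 and 239 CPM in the GFP LNA mice and 289, 275, 263, 257 and 287 CPM in the SNORA73 LNA mice, in the same order of mice. The SNORA73 LNA livers were close together and all above mouse 9, the highest GFP LNA liver. The log2 fold change of C1s1 was 0.47 (SE 0.123, adjusted p = 0.157 in edgeR). Cfb had 501, 476, 521, 456 and 540.4 CPM and 622, 525, 1043, 878 and 835 CPM in the same order. Mouse 6 lay within the GFP LNA range, and mouse 10 was the highest. The log2 fold change of Cfb was 0.65 (SE 0.175, adjusted p = 0.175 in edgeR). DESeq2 called it at 0.65 (adjusted p = 0.0219), where DESeq2 called 1.85% of all genes higher. DESeq2 was not run without mouse 10.

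By role, the direction varied between members, and differences between roles were not tested. All 5 genes of the vitamin K-dependent procoagulants and their cofactor factor V (F2, F7, F9, F10 and F5) had positive log2 fold changes in both RNAs, with medians of 0.18 in total and 0.42 in polysome RNA. Of these, 1 had an unadjusted p under 0.05 in total RNA and 3 in polysome RNA, where 4.96% and 8.12% of all genes were higher at such a p. Among the 5 genes of the convertases and their substrates, C2 was below 0 and the other 4 above 0 in both RNAs. C3, the central component, was at 0.25 in total and 0.20 in polysome RNA (adjusted p = 0.653 and 0.665 in edgeR), and at 0.12 and 0.095 without mouse 10. All 5 genes of the membrane attack complex were above 0 in total RNA and 4 in polysome RNA, but without mouse 10 C6 turned to −0.017 in total RNA. C9, which forms the ring of the pore, was at 0.21 and 0.41, and at 0.082 and 0.32 without mouse 10. C8a, a chain of C8, was at 0.36 and 0.43, and at 0.16 and 0.33 without mouse 10. In the contact pathway, which starts clotting on charged surfaces, 3 of 4 genes were below 0 in total RNA and 2 in polysome RNA. In total RNA F11 was at −0.10 and Klkb1 at −0.035, while Kng1 was at 0.29, and at 0.40 in polysome RNA. F12 was at −0.012 in total and −0.21 in polysome RNA. Its sign in total RNA turned in some fits with 1 mouse left out.

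Among the 6 genes of complement initiation, 5 were above 0 in each RNA. The lectin Mbl2, which recognises microbial sugars, was at 0.17 and 0.28. Of the complement regulators, Cfi, the protease that inactivates C3b and C4b, was at 0.091 and 0.1, and its sign turned with library totals. Serpinc1, which encodes antithrombin, was at 0.17 and 0.24. Pros1, which encodes protein S, was at −0.13 and −0.29, the lowest anticoagulant in both RNAs. Plg, the precursor of plasmin, was at 0.17 and 0.047. None of these differences passed the test.

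The levels behind these values are given in total RNA, with GFP LNA mice in the order 1, 2, 3, 8 and 9 and SNORA73 LNA mice in the order 4, 6, 10, 11 and 12. Mbl2 had 303, 354, 257, 313 and 219 CPM in the GFP LNA mice and 296, 292, 343, 372 and 321 CPM in the SNORA73 LNA mice. The groups overlapped, and mouse 9 was the lowest. C3 had 3062, 3184, 2768, 2543 and 2952 CPM in the GFP LNA mice and 3035, 3146, 4623, 3363 and 3079 CPM in the SNORA73 LNA mice. Mouse 10 stood above all others, and the remaining livers overlapped. C9 had 842, 706, 974, 885 and 824 CPM in the GFP LNA mice and 1109, 707, 1322, 968 and 799 CPM in the SNORA73 LNA mice. Mouse 10 was the highest of the 10, and mouse 6 lay next to the lowest, mouse 2. Cfi had 381, 414, 412, 408 and 405 CPM in the GFP LNA mice and 418, 432, 495, 369.6 and 438 CPM in the SNORA73 LNA mice. Both the highest value, in mouse 10, and the lowest, in mouse 11, came from SNORA73 LNA livers. F12, which encodes factor XII, had 161, 145, 163, 128 and 123 CPM in the GFP LNA mice and 154, 162, 126, 119.9 and 153 CPM in the SNORA73 LNA mice. The groups overlapped, with mouse 3 the highest and mouse 11 the lowest. Serpinc1 had 1283, 1325, 1259, 1169.9 and 1138 CPM in the GFP LNA mice and 1399.9, 1741, 1069.9, 1238 and 1501 CPM in the SNORA73 LNA mice. Mouse 6 was the highest of the 10 and mouse 10 the lowest. Plg had 1399.6, 1377, 1591, 1271 and 1670.0 CPM in the GFP LNA mice and 1669, 1738, 1394, 1667 and 1731 CPM in the SNORA73 LNA mice. The SNORA73 LNA livers other than mouse 10 lay above all GFP LNA livers but mouse 9.

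In polysome RNA the groups overlapped for each of these 7 genes. Mbl2 had 286 to 443 CPM with GFP LNA and 355 to 513 CPM with SNORA73 LNA. C9 had 651 to 956 and 736 to 1356 CPM in the same order. Serpinc1 had 1009.5 to 1312 and 1123 to 1715 CPM. For these 3 both ends of the SNORA73 LNA range were the higher ones, while for F12 both ends were lower, with 184 to 210.0 CPM against 143 to 202 CPM. Cfi had 366 to 431 and 364 to 522 CPM. C3 had 3909.6 to 4985 and 3692 to 6556 CPM. Plg had 1554 to 2073 and 1431 to 2214 CPM. For Cfi, C3 and Plg the SNORA73 LNA range held the whole GFP LNA range.

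Among the genes with an unadjusted p under 0.05 in polysome RNA, F7 had 42.7, 42.8, 44.9, 48.2 and 51.2 CPM in the GFP LNA mice and 56.3, 55.6, 56.9, 75.1 and 64.3 CPM in the SNORA73 LNA mice. Every SNORA73 LNA liver was above every GFP LNA liver. F9, the protease that activates factor X, had 53.1, 55.1, 51.3, 47.1 and 60.7 CPM in the GFP LNA mice and 74.9, 82.3, 83.5, 66.8 and 60.1 CPM in the SNORA73 LNA mice. The groups overlapped only because mouse 12 lay just under mouse 9. Masp1 had 61.1, 58.0, 70.8, 64.9 and 80.7 CPM in the GFP LNA mice and 87.8, 97.0, 73.5, 99.4 and 84.5 CPM in the SNORA73 LNA mice. Here mouse 10 alone lay under mouse 9, and the other SNORA73 LNA livers were above all GFP LNA livers.

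**Figure D3:**
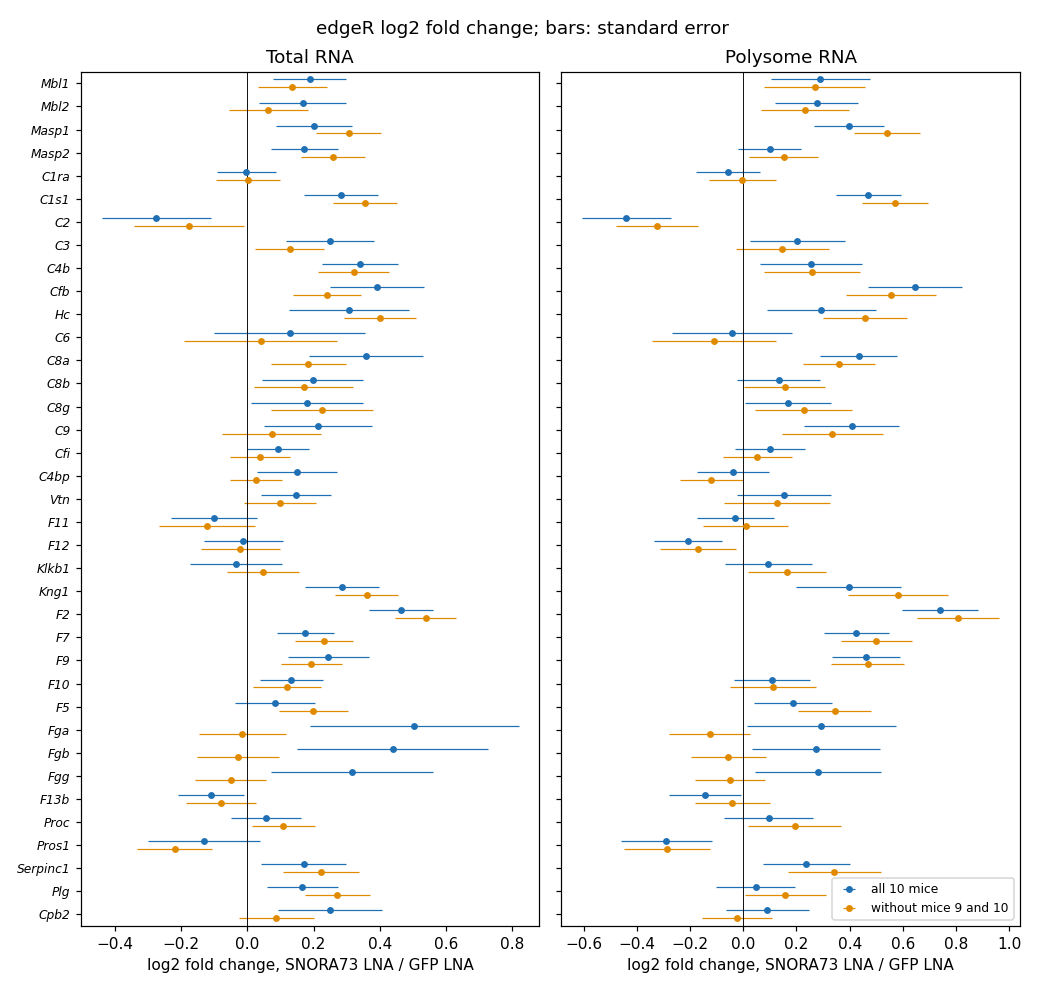
Log2 fold change of each gene between SNORA73 LNA and GFP LNA livers with its standard error, in total RNA (left) and polysome RNA (right), with all 10 mice (blue) and without mice 9 and 10 (orange). The fibrinogen genes fall from between 0.27 and 0.50 to between −0.13 and −0.015 without these mice, while F2 stays at 0.46 or above in every fit shown.

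The 3 fibrinogen genes, Fgb by the naming rule and Fga and Fgg after their values were seen, had group differences that rested on mouse 10. In total RNA, Fga had 2179.5, 1875, 2653, 2519.6 and 2207 CPM in GFP LNA mice 1, 2, 3, 8 and 9 and 2442, 2519.8, 7098, 2001 and 2165 CPM in SNORA73 LNA mice 4, 6, 10, 11 and 12. Fgb had 3060.4, 2389, 3218, 2944 and 2718 CPM in GFP LNA mice 1, 2, 3, 8 and 9 and 2918, 3107, 8040.1, 2421 and 2936 CPM in SNORA73 LNA mice 4, 6, 10, 11 and 12. Fgg had 3217, 2656, 3335, 2966 and 3003 CPM in GFP LNA mice 1, 2, 3, 8 and 9 and 3026, 3165, 7143, 2761 and 2804 CPM in SNORA73 LNA mice 4, 6, 10, 11 and 12. Mouse 10 was 3.22, 2.74 and 2.38 times the median of the other 9 mice for Fga, Fgb and Fgg, while the other 4 SNORA73 LNA livers lay within the GFP LNA range for all 3 genes. The log2 fold changes were 0.50, 0.44 and 0.32 with all mice. Without mouse 10 they were −0.0029, −0.01 and −0.047. In polysome RNA, mouse 10 had 4459 CPM of Fga, 6582 of Fgb and 6271 of Fgg, against at most 2108, 3298 and 3054 in the other 9 mice.

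Of the 37 genes, 17 were higher in mouse 10 than in the other 9 mice in total RNA and 4 were lower. In the total RNA library of mouse 10, 19.2% of all genes tested were the highest of the 10 mice and 19% the lowest. In polysome RNA, 13 of 37 were highest in mouse 10 and 3 lowest, against 11.6% and 14.1% of all genes. C4bp, which encodes a cofactor of Cfi and was named after its values were seen, had 412, 403, 403, 401 and 416 CPM in the GFP LNA mice and 407, 420.1, 609, 402 and 419 CPM in the SNORA73 LNA mice in total RNA. The 9 other mice lay within 401 to 420.1 CPM, and mouse 10 stood alone above them. The log2 fold change of C4bp was 0.15, and 0.017 without mouse 10. The highest genes in mouse 10 also took in Cfb, C3, C4b, Hc, C6, C8a, C8b, C9, Cfi and Mbl1 of complement and F9, Cpb2 and Pros1 of clotting. Klkb1 (plasma prekallikrein), F13b, Proc (protein C) and Serpinc1 were lower in mouse 10 than in the other 9 mice. The acute phase genes moved with these values, and their part was not tested. In polysome RNA, mouse 11 was the highest liver for 14 of 37 genes, against 20.6% of all genes.

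Chains of 1 protein were compared across the 10 livers in total RNA, over 6 pairs, with two-sided permutation tests of 100000 resamples. Fga and Fgb had a Pearson r of 0.988 (permutation p = 0.00038, adjusted 0.0011) and a Spearman rho of 0.867 (permutation p = 0.00223, adjusted 0.00669). Fga and Fgg had an r of 0.984 (permutation p = 0.00055, adjusted 0.0011) and a rho of 0.842 (permutation p = 0.00388, adjusted 0.00776). Fgb and Fgg had an r of 0.989 (permutation p = 7e-05, adjusted 0.00042) and a rho of 0.891 (permutation p = 0.00103, adjusted 0.00618). Without SNORA73 LNA mouse 10 and GFP LNA mouse 2, those farthest from the median, r was 0.766, 0.680 and 0.792. Without mice 9 and 10, r was 0.855, 0.801 and 0.882. Within the 5 GFP LNA mice, given without a test, r was 0.859, 0.749 and 0.953. Within the 5 SNORA73 LNA mice, which include mouse 10 far above the rest, it was 0.9948, 0.9983 and 0.9915. C8a and C8b, chains of complement C8, had an r of 0.780 (permutation p = 0.0143, adjusted 0.0214) and a rho of 0.552 (permutation p = 0.106, adjusted 0.159), and r was 0.254 without the same 2 mice. It was 0.759 without mice 9 and 10, 0.827 within the GFP LNA mice and 0.805 within the SNORA73 LNA mice. C8g, the third chain of C8, had an r of −0.42 with C8a (permutation p = 0.236, adjusted 0.283, rho −0.30 with p = 0.407, adjusted 0.489). With C8b its r was −0.18 (permutation p = 0.631, adjusted 0.631, rho −0.091 with p = 0.812, adjusted 0.812).

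Polysome RNA was next compared with total RNA of the same livers, over all 20 libraries. F9, the factor of haemophilia B, had the lowest polysome level relative to total RNA, and C8g the highest. In GFP LNA livers, 8 of 37 genes were higher in polysome RNA and 5 lower at an FDR under 0.05 in edgeR, where 21.8% of the 13795 genes tested were called higher and 21% lower. In SNORA73 LNA livers, 9 were higher and 4 lower, against 19.7% and 18.2%. With the mouse as a replicate block, which the animal itself provides, the counts were 13 higher and 9 lower with GFP LNA, against 28.9% and 27.2% of all genes, and 11 and 9 with SNORA73 LNA, against 26% and 25.1%. Without mouse 11 the count of genes higher with SNORA73 LNA was 3, against 16.6% of all genes, and without mouse 12 it was 5, against 15.9%. Without mouse 8 the count higher with GFP LNA was 5, against 17.4%.

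In both LNA groups 7 of 37 genes were higher and 4 lower in polysome RNA, where 16.2% and 15.5% of all genes were. With the block, 10 were higher and 7 lower in both, against 22.5% and 21.1%. The lower genes were F9, Masp1 (a protease of the lectin pathway), Pros1 and F13b (the carrier subunit of factor XIII, which cross-links fibrin). The log2 ratio of polysome to total CPM of F9 was −0.98, −1.03, −1.11, −1.35 and −1.10 in GFP LNA mice 1, 2, 3, 8 and 9 and −0.85, −0.52, −1.06, −0.81 and −1.22 in SNORA73 LNA mice 4, 6, 10, 11 and 12. It was below 0 in all 10 mice. The fitted log2 fold change of F9 was −1.11 (SE 0.125, adjusted p = 6.51e-07 in edgeR) with GFP LNA and −0.89 (SE 0.124, adjusted p = 1.14e-05 in edgeR) with SNORA73 LNA. Masp1 was at −0.69 and −0.49, Pros1 at −0.65 and −0.80, and F13b at −0.58 and −0.61, each below 0 in all 10 mice. Fga and Klkb1 were also below 0 in all 10 mice and were called lower in both LNA groups only with the block, Fga at −0.38 and −0.55 (adjusted p = 0.000312 and 1.36e-05 in edgeR).

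The 7 higher genes were C8g, C3, Vtn, C4b, C1ra, Mbl1 and Proc. C8g, Vtn and C1ra, and the 4 lower genes F9, Masp1, Pros1 and F13b, were called in both LNA groups with each mouse left out in turn and in the 8 other fits run. C3 was not called with SNORA73 LNA without mouse 11, at 0.42. C4b was not called with GFP LNA without mouse 8, at 0.45, nor with SNORA73 LNA in 10 of the 18 other fits, among them those without mouse 2, 3, 4, 10, 11 or 12, where it was at 0.34 to 0.47. Mbl1 lost its call without mouse 1, 3, 8 or 9 with GFP LNA and without mouse 11 with SNORA73 LNA. With GFP LNA it also lost the call with no filter beyond 1 count, at a CPM above 1 in every library and without mice 9 and 10. Proc lost its call without any 1 of the GFP LNA mice with GFP LNA and without mouse 11 or 12 with SNORA73 LNA. It also lost the call with no filter beyond 1 count in both LNA groups, and without mice 9 and 10 with GFP LNA. C8g had log2 ratios of 0.57, 0.48, 0.50, 1.29 and 1.08 in the GFP LNA mice and 0.45, 0.21, 1.09, 0.88 and 1.14 in the SNORA73 LNA mice, in the same order. All were above 0, from 0.21 in mouse 6 to 1.29 in mouse 8. Its fitted log2 fold change was 0.77 (SE 0.171, adjusted p = 0.00115 in edgeR) with GFP LNA and 0.76 (SE 0.171, adjusted p = 0.00146 in edgeR) with SNORA73 LNA. C3 was at 0.55 and 0.51 and was above 0 in all 10 mice. Vtn, which encodes the complement and adhesion protein vitronectin, was at 0.53 and 0.54, and C4b at 0.52 and 0.43, with mouse 6 below 0 for both. The counts of C1ra are uncertain because of its copy C1rb. Over the 10 mice, 6 of the 37 genes were above 0 and 6 below 0 in every mouse. The share of all genes with the same sign in every mouse was not counted, so these counts have no background beside them. Across the 37 genes the median ratio of a mouse ran from −0.15 in mouse 6 to 0.36 in mouse 11, both SNORA73 LNA livers, and from −0.042 to 0.074 among the GFP LNA livers.

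**Figure D4:**
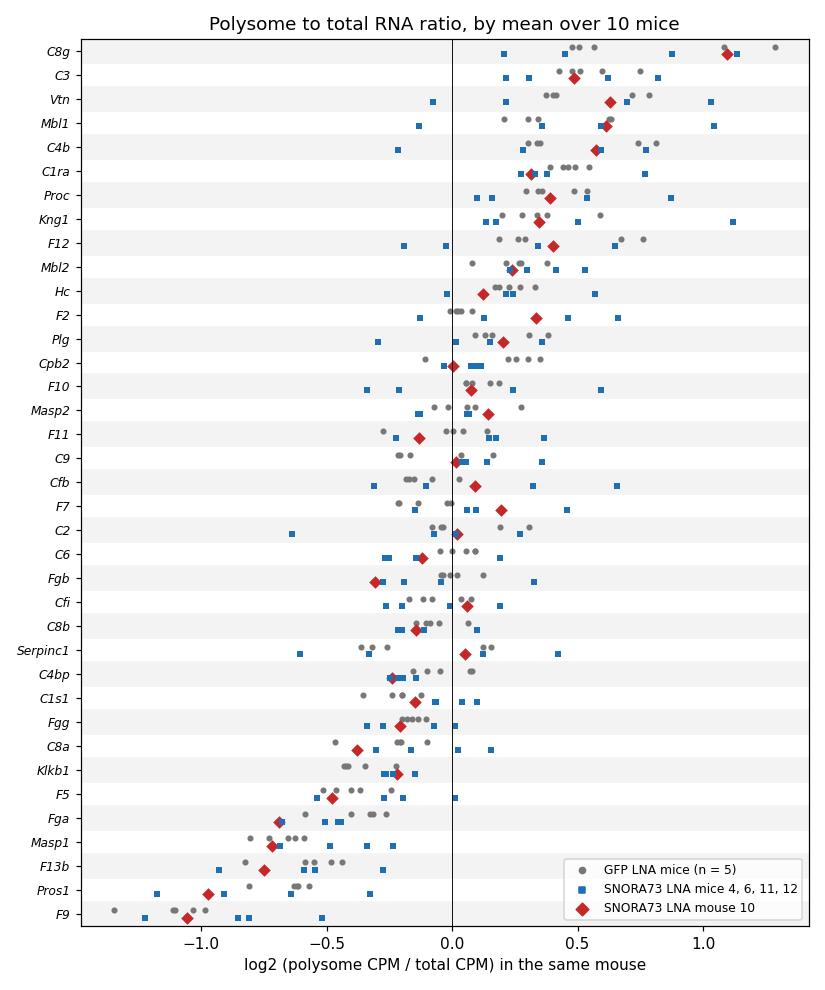
Log2 ratio of polysome to total CPM in each mouse for the 37 genes, ordered by the mean over 10 mice, with GFP LNA mice in grey, SNORA73 LNA mice in blue and mouse 10 in red. C8g, C3 and C1ra lie above 0 and F9, Pros1, F13b and Masp1 below 0 in every mouse, and F2 lies near 0 in the GFP LNA mice and spreads from −0.13 to 0.66 in the SNORA73 LNA mice.

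Some genes were called in 1 LNA group alone. F12 and F5 were called with GFP LNA, at 0.43 and −0.39, where SNORA73 LNA gave 0.24 and −0.29. F12 lost the call without mice 9 and 10, at 0.32, and F5 without mouse 2 or mouse 8, at −0.40 and −0.37. Kng1 (kininogen, with the close copy Kng2) and F2 were called with SNORA73 LNA, at 0.49 and 0.30, where GFP LNA gave 0.38 and 0.028. Kng1 lost the call without mouse 11, at 0.29, without mouse 12, at 0.48, and with no filter. F2 lost it in 9 of the 18 other fits, among them those without mouse 1, 2, 3, 10, 11 or 12, where it was at 0.20 to 0.30. With the mouse as a replicate block, F5 at −0.40 and −0.29 and Kng1 at 0.36 and 0.45 were called in both LNA groups. Whether the polysome to total ratio itself differed between the LNA groups was read from the interaction term. In that test 0 of 37 genes were called in edgeR and 0 had an unadjusted p under 0.05, where 0% of genes were called higher and 0.00725% lower, and 2.04% and 0.87% had an unadjusted p under 0.05 in either direction. DESeq2 and limma-voom also called 0 of 37. These fits did not pair the libraries of a mouse. With the mouse as a replicate block 0 of 37 were called, against 0.00725% of all genes higher and 0% lower. Unadjusted p-values with the block were not counted. The log2 ratios per mouse overlapped between the LNA groups for all 37 genes, while 1.74% of all genes had no overlap. In the fit without the block, the smallest p-values belonged to F7, which encodes factor VII, and F2.

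F2 had log2 ratios of 0.023, 0.036, −0.01, 0.079 and 0.016 in GFP LNA mice 1, 2, 3, 8 and 9 and 0.13, −0.13, 0.33, 0.66 and 0.46 in SNORA73 LNA mice 4, 6, 10, 11 and 12. The GFP LNA livers were all near 0, and mouse 6 was lower and the other SNORA73 LNA livers higher than all of them. The interaction of F2 was 0.28 (SE 0.157, unadjusted p = 0.0934, adjusted p = 1 in edgeR), and 0.26 with the mouse as a block (adjusted p = 0.631 in edgeR). F7 had ratios of −0.14, −0.21, −0.21, −0.022 and −0.0041 and 0.097, −0.15, 0.20, 0.46 and 0.06 in the same order. All GFP LNA values were below 0 and 4 of the 5 SNORA73 LNA values above it, with mouse 6 again the exception. The interaction of F7 was 0.25 (SE 0.139, unadjusted p = 0.0857, adjusted p = 1 in edgeR), and 0.25 with the block (adjusted p = 0.631 in edgeR).

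The rest of the pathway was followed in 55 further genes of complement, coagulation and fibrinolysis, the vitamin K cycle and factor secretion. None was called between the LNAs in either RNA, out of 44 tested in total and 45 in polysome RNA, and 2 higher and 3 lower in total RNA and 0 higher and 3 lower in polysome RNA had an unadjusted p under 0.05 in edgeR, against 4.96% and 3.69% of all genes in total and 8.12% and 5.32% in polysome RNA. In polysome against total RNA, 11 of 46 were called higher and 12 lower with GFP LNA, against 21.8% and 21% of all genes, and 10 and 9 with SNORA73 LNA, against 19.7% and 18.2%. C4a, at 1.17 (adjusted p = 0.00265 in edgeR), and Vkorc1, the reductase that recycles vitamin K, at 0.85 (adjusted p = 6.47e-07 in edgeR), were the highest of those called with GFP LNA. Thbd, which encodes thrombomodulin, was among those called lower, at −1.22 (adjusted p = 0.000772 in edgeR). With SNORA73 LNA they were at 0.86, 0.83 and −1.20, in the same order.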

How the data were processed

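Total RNA and polysome RNA of 10 mouse livers were analysed as 20 libraries, which the labels assign to a mouse, an RNA and an LNA. The authors deposited estimated counts. They had cleaned the reads with fastp, discarded rRNA reads by bowtie alignment, quantified Ensembl transcripts with kallisto on GRCm38 and summed them to genes with tximport, without normalization. Since kallisto divides ambiguous reads between transcripts, genes with close copies are uncertain. Symbols were matched for 51903 of 53028 identifiers.

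Estimated counts were rounded. After a filter on CPM (over 0.5 in 4 or more libraries of the fit), edgeR 4.0.16 in R 4.3.3 was used (TMM, quasi-likelihood, Benjamini-Hochberg over all genes tested). Total and polysome RNA were fitted apart, and their ratio and the interaction in 1 fit of 20 libraries. Log2 ratios per mouse used a prior count of 2. The standard error is the log2 fold change over the root of F. Alternatives were limma-voom (limma 3.58.1), DESeq2 1.42.0, other scalings and filters, each mouse left out, mice 9 and 10 left out, and the mouse as a replicate block. The count of members above 0 under these alternatives, and the fits of the LNA comparisons without mice 6 and 9, were added after seeing the data. The same mouse number marks the same animal, and deviations of its libraries from the group means correlated at 0.126 to 0.579 in all 10 mice. Separate mice are the replicates. Fits were tested on simulated data.

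Values were given for a lead gene of each role, the 3 smallest p in each LNA comparison, the 4 highest and 4 lowest polysome to total ratios, genes called in 1 LNA group, and the 2 smallest interaction p. The members, lists and tests were chosen with earlier results of these data known. Protein length and levels per length were not analysed here, so levels are not compared between genes. A further pathway gene that the rule named is not reported here. Precision is limited by 5 mice per group and depths of 14852951 to 42023390 counts.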

Additional observations from a re-analysis of the deposited data

Results flagged for a closer look

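In each group of 5 libraries, the gap between the highest or lowest value and its neighbour was divided by the range on the log2 scale and set against Dixon's critical value of 0.71. Of 148 groups, 4 for each of the 37 genes, 16 passed, where chance passes about 1 in 20, or 7.4. SNORA73 LNA mouse 10 gave 12 of the 16, over 9 genes, and the groups of a liver are not independent. In its total RNA, 6 genes were high against the other 4 SNORA73 LNA livers. Fga had 7098 CPM against 2001 to 2519.8. Fgb had 8040.1 CPM against 2421 to 3107, and Fgg had 7143 CPM against 2761 to 3165. C3 had 4623 CPM against 3035 to 3363. C8a had 786 CPM against 419 to 489, and C4bp had 609 CPM against 402 to 420.1. Low in the same library were Proc and Plg: Proc had 221 CPM against 274 to 298, and Plg had 1394 CPM against 1667 to 1738.

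In polysome RNA of mouse 10, 4 genes were high. Fga had 4459 CPM against 1410.1 to 1877. Fgb had 6582 CPM against 2465 to 3143, and Fgg had 6271 CPM against 2445 to 2878. C8b had 355 CPM against 278 to 287. Other mice gave 1 value each. In total RNA of GFP LNA mouse 2, C8a had 324 CPM against 407 to 442. In total RNA of GFP LNA mouse 1, Cfi had 381 CPM against 405 to 414. In total RNA of SNORA73 LNA mouse 11, C1s1 had 232 CPM against 275 to 288. In polysome RNA of GFP LNA mouse 9, Kng1 had 2988 CPM against 1748 to 2018.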

How the results depend on the processing

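Of the values recomputed under the alternatives, 1234 stayed the same, 27 lost a call, 14 gained one, 25 turned sign and 12 moved, and the cause was not tested. For a gene, the same means its direction and side of the threshold. For a count of members it means close to the main count, and for an r the same sign without a large fall. The 12 that moved were member counts and the r of C8a with C8b. Between the LNAs no member was called in the main fit, so a gene there could only gain a call or turn sign. Between the LNAs, members called higher in total RNA went from 0 to 1 (F2) without mice 9 and 10, against 0.553% of all genes. In polysome RNA they went to 2 with DESeq2, against 1.85% of all genes, and to 1 with a CPM above 1 in every library, against 0.284%. With library totals, Cfi turned to −0.059 in total and −0.066 in polysome RNA, and Plg to −0.12 in polysome RNA. Fgb turned to −0.028 and −0.056 without mice 9 and 10. With each mouse left out in turn, Fgb lay between −0.010 and 0.56 in total RNA, and between −0.059 and 0.38 in polysome RNA, with mouse 10 setting the low end of both. F12 ranged from −0.074 to 0.037 in total RNA, and Plg from −0.023 to 0.13 in polysome RNA. No paired analysis was possible because the LNA groups shared no mouse number.

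In polysome against total RNA, the mouse as a replicate block raised the members called higher with GFP LNA from 8 to 13 and those lower from 5 to 9, and raised those lower with SNORA73 LNA from 4 to 9. The shares of all genes rose from 21.8% to 28.9%, from 21% to 27.2% and from 18.2% to 25.1%, in the same order. Without mice 9 and 10, 5 were higher with GFP LNA, against 18.9% of all genes. With no filter beyond 1 count 5 were higher with SNORA73 LNA, against 7.55% of all genes. With each mouse left out, the counts of higher members ranged from 5 to 9 with GFP LNA and from 3 to 10 with SNORA73 LNA. The shares of all genes ranged from 17.4% to 23.6% and from 15.9% to 20.3%. F2 turned to −0.040 with GFP LNA at a CPM above 1 in every library. Fgb, near 0 with GFP LNA, turned to −0.012 with DESeq2 and its size factors, −0.0077 without the filter, −0.058 at a CPM above 1 and −0.043 without mice 9 and 10, and ranged from −0.020 to 0.022 with each mouse left out. With SNORA73 LNA, Cfi ranged from −0.089 to 0.015 and Serpinc1 from −0.19 to 0.084, and mouse 6 turned both. C8a with C8b fell to an r of 0.254 without the 2 farthest mice, and C8b with C8g turned to 0.166 without them and to 0.235 without mice 9 and 10. Protein length and levels per length were not run. Depth and 5 mice per group limit what could be called, and a missed threshold does not show equal levels.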
